A study of Mus musculus with 43 samples.

Results

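The calcium/calmodulin-dependent protein kinase genes described here are Camk2a, Camk2b, Camk2d and Camk2g, which encode the 4 CaMKII subunits, together with Camk4, Camk1d and Camkk2. These 7 genes were picked by name among the 53379 gene IDs of the RNA tables, and each symbol matched 1 Ensembl ID. Their chromatin regions were those with the midpoint inside the gene span or within 1 kb of its start, 240 of 165184 regions in the female ATAC table and 194 of 192919 in the male ATAC table. All 7 genes passed the low-count filter in both RNA tables.

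CaMKII is a ring of subunits that calcium-bound calmodulin switches on, and that can keep itself active by phosphorylating its own subunits. It is among the most abundant proteins of excitatory synapses in the forebrain, where it takes part in the strengthening of synapses by activity. CaMKIV, the product of Camk4, works mainly in the nucleus, where it phosphorylates transcription regulators such as CREB, and CaMKI delta, the product of Camk1d, is one of the CaMKI enzymes. Camkk2 encodes the upstream kinase CaMKK beta, which phosphorylates CaMKI and CaMKIV and also AMPK, the energy-sensing kinase.

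The study examined whether enrichment of the cage alters RNA and open chromatin in cortical neurons. Wild-type Swiss Webster mice, weaned at postnatal day 25, lived either with environmental enrichment (EE: a larger cage holding a running wheel, a tube, added nesting and exchanged toys) or in standard housing (SH: a smaller cage with bedding and 1 nestlet), and were 2 months old at sampling. Fixed nuclei of the frontal cortex were sorted on NeuN, a protein of neurons, into nuclear RNA-seq libraries (6 EE and 6 SH per sex) or ATAC-seq libraries (3 EE and 3 SH for females, 6 EE and 7 SH for males). ATAC-seq reads mark DNA that a transposase can reach. Nothing in the labels says that replicates are separate animals, so p-values measure the spread between these libraries, which may be technical. Each sex had tables of its own, and sex cannot be told apart from whatever else differs between those tables.

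In mega (M) counts, library totals were 10.6 to 15.4 M for female RNA, 10.4 to 14.6 M for male RNA, 19.1 to 26.3 M for female ATAC and 27.7 to 73.8 M for male ATAC. Markers of neurons (Rbfox3, Snap25, Syt1, Map2) summed to 6522 to 7900 counts per M (CPM) in every RNA library, against 137 to 587 CPM for 21 markers of glia and vessels, and no marker gene was at 0 in all libraries of a table. The 587 CPM belonged to female SH replicate 2, and the next highest female library had 367 CPM. In female libraries 4 excitatory neuron markers (Slc17a7, Neurod6, Tbr1, Cux2) summed to 495 to 563 CPM in EE and 542 to 648 CPM in SH, with SH replicate 1 the only SH library within the EE range. In males the same sum was 434 to 518 CPM in EE and 458 to 526.4 CPM in SH. The 6 markers of striatal projection neurons summed to 61.7 to 219 CPM in female EE and 32.2 to 152 CPM in female SH libraries, and to 20.6 to 30.3 CPM in male EE and 23.2 to 26.7 CPM in male SH libraries.

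Promoter sequence was at hand for Camk2b, Camk2d, Camk1d and Camkk2, as windows from 250 bases before to 50 bases after the start (RefSeq, GRCm38.p6). The windows of Camk2b and Camk2d are shown because these subunits had the highest EE over SH values of the family in female RNA, and the pair of Camk1d windows because its 2 starts differ in base composition. Each is printed 5′ to 3′ on the strand of the gene, and capitals mark a GC box (GGGCGG, or CCGCCC where it lies on the other strand).
Camk2b, chr11:6065699-6065998, minus strand: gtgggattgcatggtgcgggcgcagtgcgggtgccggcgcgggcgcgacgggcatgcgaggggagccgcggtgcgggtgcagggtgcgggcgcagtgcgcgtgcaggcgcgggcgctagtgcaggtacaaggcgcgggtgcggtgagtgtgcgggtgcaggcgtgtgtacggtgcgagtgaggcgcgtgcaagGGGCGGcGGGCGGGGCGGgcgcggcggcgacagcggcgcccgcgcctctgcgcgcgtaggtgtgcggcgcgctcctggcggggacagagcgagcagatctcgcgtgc
Camk2d, chr3:126596701-126597000, plus strand: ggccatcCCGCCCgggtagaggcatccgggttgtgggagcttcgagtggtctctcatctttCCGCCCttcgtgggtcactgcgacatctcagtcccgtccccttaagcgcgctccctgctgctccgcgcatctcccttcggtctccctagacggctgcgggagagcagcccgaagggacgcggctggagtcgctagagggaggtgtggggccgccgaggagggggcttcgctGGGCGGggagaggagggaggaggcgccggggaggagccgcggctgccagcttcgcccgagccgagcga
Camk1d first start, chr2:5714713-5715012, minus strand: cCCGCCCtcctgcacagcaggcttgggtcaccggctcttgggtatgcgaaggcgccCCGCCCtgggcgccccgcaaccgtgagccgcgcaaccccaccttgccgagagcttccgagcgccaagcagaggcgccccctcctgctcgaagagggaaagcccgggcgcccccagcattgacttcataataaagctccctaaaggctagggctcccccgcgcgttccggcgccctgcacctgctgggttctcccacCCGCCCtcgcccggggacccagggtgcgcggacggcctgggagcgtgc
Camk1d second start, chr2:5675997-5676296, minus strand: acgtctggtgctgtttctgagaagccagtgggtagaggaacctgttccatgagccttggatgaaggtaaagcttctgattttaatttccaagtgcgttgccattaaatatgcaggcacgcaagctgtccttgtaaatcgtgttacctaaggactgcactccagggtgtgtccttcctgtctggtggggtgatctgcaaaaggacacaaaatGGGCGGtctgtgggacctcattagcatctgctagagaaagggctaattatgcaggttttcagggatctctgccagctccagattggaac

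The Camk2b window held 51 CpG dinucleotides, more than 99.3% of the 32851 promoter windows searched, whose median was 7. Camkk2 had 42, Camk2d 31 and the first Camk1d start 29, whereas the second Camk1d start, inside the gene, had 5. GC boxes numbered 3 at Camk2b, 3 at Camk2d, 3 at the first and 1 at the second Camk1d start, and 1 at Camkk2. A GC box was present in 35.7% of all windows. The cyclic AMP response element TGACGTCA, its core CGTCA (which is also part of the full element) and the AP-1 site TGAGTCA, read on both strands, were in none of these 5 windows. They were present in 1.79%, 20.8% and 5.2% of all windows in that order.

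Camk2a, whose subunit is the hallmark of cortical excitatory neurons, had the highest RNA level of the family for its length. Its median was 14.9 CPM per kb of gene span in female libraries and 14.4 CPM per kb in male libraries, with 99.7% and 99.6% of the tested genes below its mean in the same order. Camk2b, the other main neuronal subunit, followed with 3.9 CPM per kb in female libraries and 3.37 CPM per kb in male libraries. The ranges of Camk2a and Camk2b did not overlap in either sex. Camk2g came next, at 2.95 CPM per kb in female libraries and 3.12 CPM per kb in male libraries, and Camk2d was the lowest of the 7 genes, at 0.54 CPM per kb in female libraries and 0.45 CPM per kb in male libraries. The median gene had a mean of 0.57 CPM per kb in female libraries and 0.56 CPM per kb in male libraries, so Camk2d sat near the middle of all tested genes.

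The upstream kinase Camkk2 had a median of 2.51 CPM per kb in female libraries and 2.37 CPM per kb in male libraries. Camk4 had 1.60 CPM per kb in female libraries and 1.43 CPM per kb in male libraries. In the female order, the neighbours Camk2g and Camkk2 overlapped in range, as did Camk4 and Camk1d, although the higher of each pair was above the other within each of the 12 libraries. In the male order Camk2b overlapped with Camk2g, which in turn overlapped with Camk1d.

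Camk1d was the member whose level differed most between the sexes' tables. It had 1269 CPM on average in male libraries (1149.8 to 1387) and 619 CPM in female libraries (572 to 685), a log2 difference of 1.03, male over female, with no overlap. Only 2.03% of the 14067 genes tested in both tables lay at least as far apart in either direction. The other 6 members differed by log2 values between -0.28 (Camk2d) and 0.06 (Camk2g). No test was made, because each sex has its own table.

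**Figure D1:**
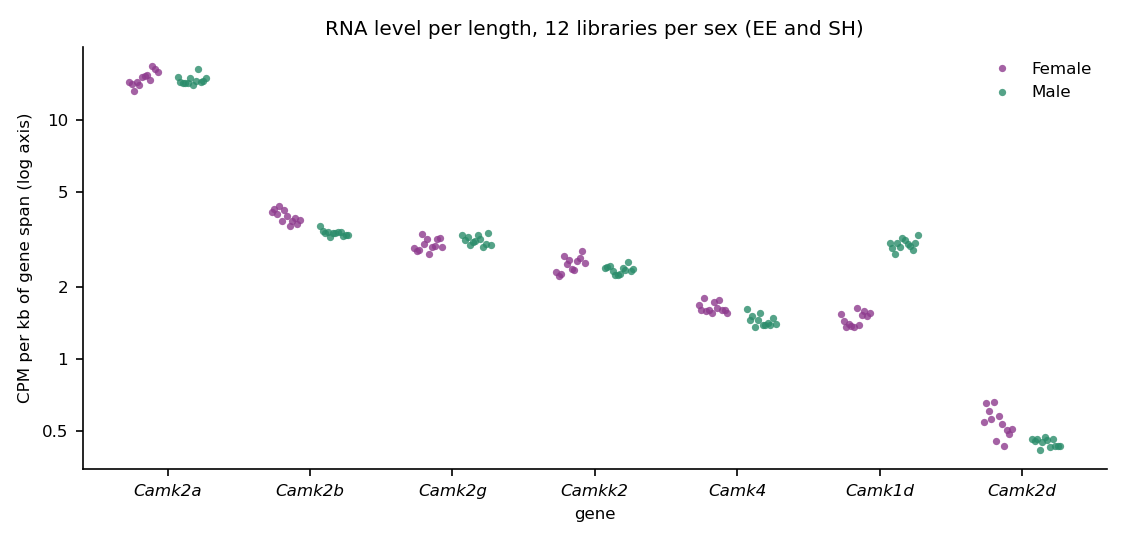
RNA level of each gene in CPM per kb of gene span (log axis), 1 point per library, with 12 female and 12 male libraries of both housings. Camk2a is highest in both sexes at medians of 14.9 and 14.4, Camk2d is lowest, and Camk1d is the gene whose female and male points are farthest apart.

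None of the 7 genes was called for EE against SH in females at a Benjamini-Hochberg adjusted p under 0.05 (edgeR quasi-likelihood F test), and none of the 14587 genes tested was (0.0%). At an unadjusted p under 0.05 there were 4 members (Camk2a, Camk2b, Camk2d and Camk1d), where 8.67% of all genes, 1265 in number, passed. DESeq2 called 96 genes, none of them a member, and edgeR called 85 genes, again without a member, once female SH replicate 2 was left out. By sign, 3 members were higher and 4 lower in EE, where 50.6% of all genes were higher, with a median log2 fold change of -0.007, against 0.0019 over all genes. No member had EE and SH libraries fully apart in either sex, as 0.548% of all genes in females and 0.541% in males did.

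Camk2a had 825 CPM in the lowest, 890.0 in the median and 941 in the highest of the 6 female EE libraries, against 917, 974 and 1045 CPM in the 6 SH libraries. All EE libraries were below the SH median, and 5 of 6 were below the lowest SH library. The log2 fold change was -0.15 ± 0.05 (SE; 95% interval -0.24 to -0.05), or 0.90-fold (unadjusted p = 0.0043, adjusted p = 0.27 by edgeR). In these bulk libraries fewer cells of a type and less RNA per cell cannot be told apart. Divided by the summed excitatory markers of the same library, a ratio added after the values were seen, Camk2a ran from 1.59 through a median of 1.64 to 1.73 in EE, against 1.42, 1.64 and 1.79 in SH. On that ratio the EE libraries lay within the SH range, with a log2 difference of 0.02.

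Camk2b stood on the other side. Its female EE libraries ran from 365 CPM through a median of 402 to 423 CPM, against 347, 367 and 384 CPM in SH. Of the EE libraries 5 were above the highest SH library and the sixth was below the SH median. The log2 fold change was 0.12 ± 0.04 (SE; 95% interval 0.03 to 0.22), or 1.09-fold (unadjusted p = 0.012, adjusted p = 0.39 by edgeR). Divided by the excitatory markers, Camk2b ran from 0.67 through 0.74 to 0.79 in EE and from 0.56 through 0.59 to 0.71 in SH, a log2 difference of 0.29 with 5 of 6 EE libraries above every SH library. The 6 striatal markers were also higher on average in female EE (155 CPM against 99.3 CPM in SH), and so were 3 markers of GABAergic neurons (Gad1, Gad2, Slc32a1), at 98.2 CPM in EE against 81.7 CPM in SH, with overlapping ranges of 77.2 to 116 CPM in EE and 60.5 to 119 CPM in SH. In males the GABAergic sum averaged 54.9 CPM in EE and 55.8 CPM in SH. The part of either list in the Camk2b values was not tested.

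The ratio of Camk2b to Camk2a, chosen after both genes' values were seen and therefore given without a test, does not depend on how libraries are scaled. In females it ran from 0.42 through a median of 0.45 to 0.47 in EE, against 0.35, 0.37 and 0.40 in SH. All 6 EE libraries were above the highest SH library, and the log2 difference was 0.27. Camk2a was lower and Camk2b higher in female EE, so the choice of these genes by itself favours a separated ratio. How many other gene pairs separate as fully was not computed. With any 1 library left out the difference ran from 0.25 to 0.29, which does not remove the effect of that choice. In males the ratio ran from 0.35 through 0.37 to 0.37 in EE and from 0.32 through 0.35 to 0.37 in SH, and the groups overlapped, with a log2 difference of 0.05.

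**Figure D2:**
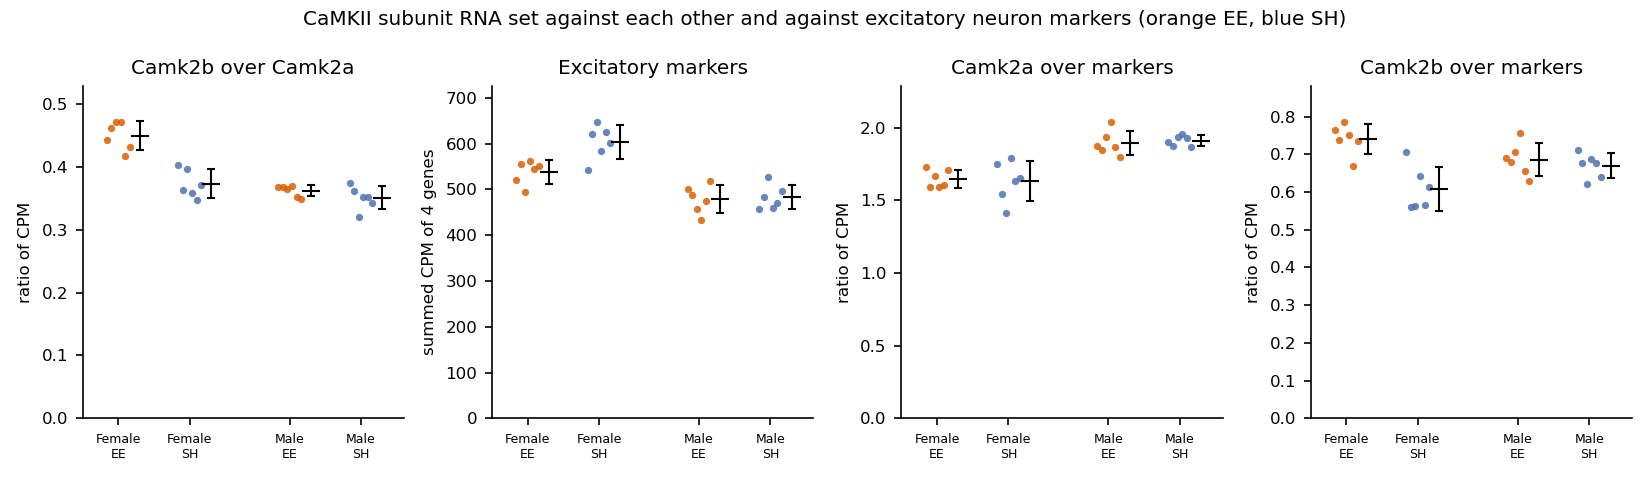
Each point is 1 RNA library (orange EE, blue SH) and the bar is the mean ± SD of 6 libraries. The panels give, from left, the ratio of Camk2b to Camk2a CPM, the summed CPM of 4 excitatory neuron markers, and Camk2a and Camk2b each divided by that sum; female EE and SH separate on the first panel, 1 SH library lies within the EE range on the second, and male EE and SH overlap on all 4.

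Camk2d, the subunit also known from heart muscle, had 113, 145 and 165 CPM (lowest, median and highest) in female EE libraries, against 108, 127 and 144 CPM in SH. Its log2 fold change was the largest of the family, 0.19 ± 0.09 (SE), with an unadjusted p of 0.045 and an adjusted p of 0.56 by edgeR. Of the EE libraries 5 were above the SH median. It was also the least even member among female libraries of 1 housing, with a coefficient of variation of 12%, against 6.41% for the median gene at 50 CPM or more, and 3.97% for Camk2d itself in males. Camk2g, a more broadly expressed subunit, had 167, 175 and 197 CPM in female EE and 163, 175 and 189 CPM in female SH libraries, with a log2 fold change of 0.01 (95% interval -0.09 to 0.12).

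Camk1d had 572, 583 and 647 CPM in female EE libraries and 581, 648 and 685 CPM in SH libraries. Every EE library was below the SH median and 3 were below the lowest SH library. The log2 fold change was -0.12 ± 0.05 (SE), with an unadjusted p of 0.024 and an adjusted p of 0.48 by edgeR. Camk4 had 400.05, 409.9 and 463 CPM in female EE and 398, 416 and 451 CPM in female SH libraries, a log2 fold change of -0.01 (95% interval -0.11 to 0.09). Camkk2 had 107, 116 and 129 CPM in female EE and 113, 122 and 136 CPM in female SH libraries, a log2 fold change of -0.06 (95% interval -0.18 to 0.06). The housing groups of these last 2 genes overlapped. Of the Camkk2 EE libraries 3 were below the lowest SH library and 2 were above the SH median. Of the Camk4 EE libraries 1 was above the highest SH library and 0 were below the lowest.

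**Figure D3:**
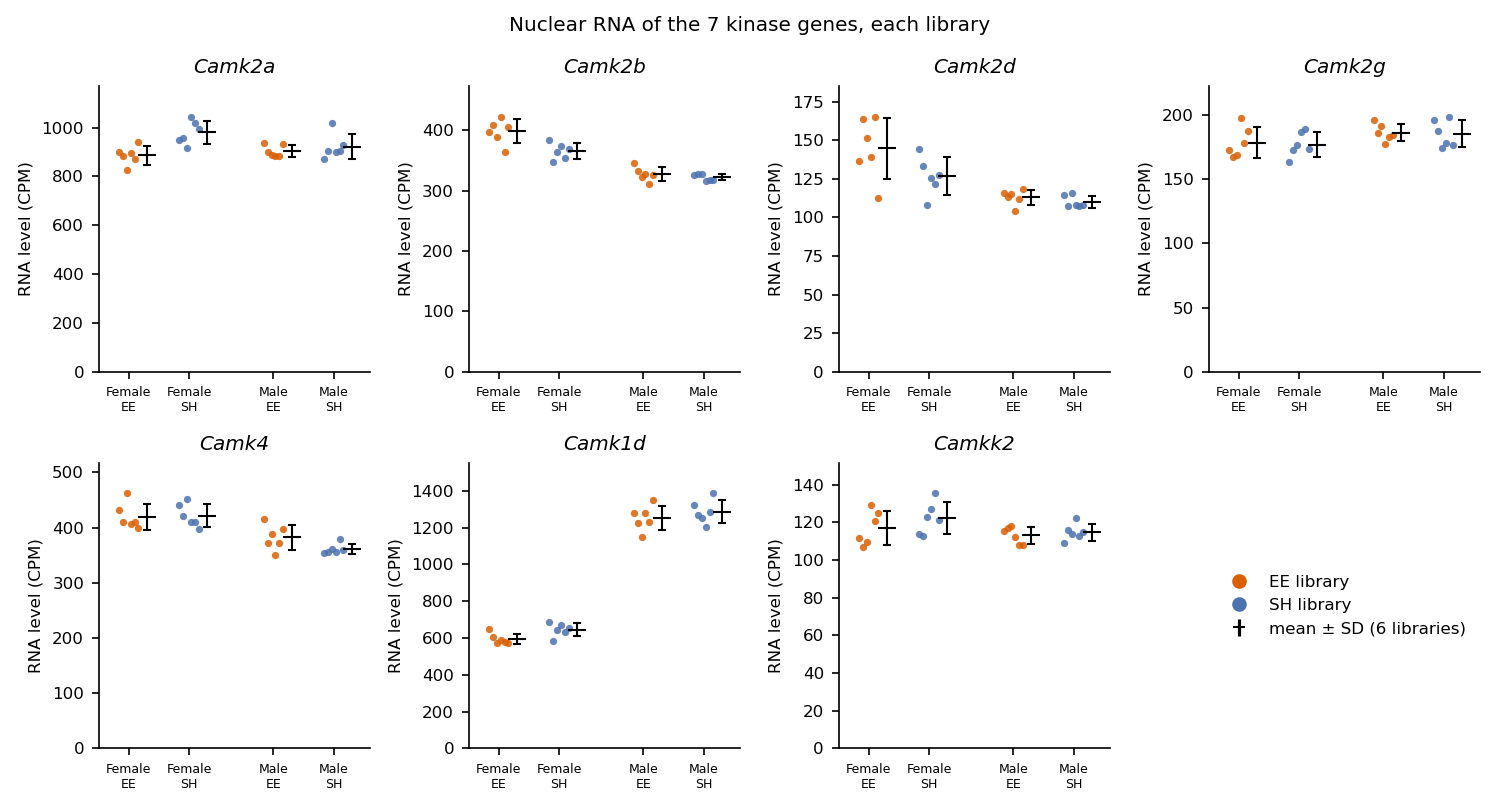
RNA level (CPM, axes from 0) of each of the 7 genes in 24 libraries; orange points are EE and blue points SH libraries, and black bars are the mean ± SD of 6 libraries. Camk2a and Camk1d lie lower and Camk2b higher in female EE, with some overlap each, and the male housing groups overlap for every gene.

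In males the log2 fold changes of the 7 genes ran from -0.04 (Camk1d) to 0.08 (Camk4). None was called by edgeR, where 6 of 14597 genes were (0.0411%), and none had an unadjusted p under 0.05, where 8.03% of all genes did. DESeq2 called 41 genes and no member. There were 4 members higher and 3 lower in EE, where 47.9% of all genes were higher, with a median log2 fold change of 0.01, against -0.01 over all genes.

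The male value farthest from 0 was that of Camk4, the nuclear kinase gene. It had 349.9, 381 and 415 CPM in male EE and 354, 358 and 379.7 CPM in male SH libraries, a log2 fold change of 0.08 ± 0.04 (SE; 95% interval -0.002 to 0.17; unadjusted p = 0.055, adjusted p = 0.63 by edgeR). Of the EE libraries 3 were above every SH library and 1 was below every SH library. Male Camk2a had 885, 894 and 937 CPM in EE and 871, 905 and 1020.3 CPM in SH, a log2 fold change of -0.03 (95% interval -0.11 to 0.06). Male Camk2b had 311, 327 and 346 CPM in EE and 317, 322 and 328 CPM in SH, a log2 fold change of 0.02 (95% interval -0.05 to 0.10). The remaining male log2 fold changes were 0.04 for Camk2d, 0.01 for Camk2g, -0.04 for Camk1d and -0.02 for Camkk2. The sign of male Camk2b and of male Camk2g turned when libraries were scaled by their totals alone, to -0.01 and -0.02.

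Whether the housing difference itself differed between the sexes was tested with an interaction term over all 24 RNA libraries. It called 1 of 15562 genes (0.00643%) and no member, and no member had an unadjusted p under 0.05, where 8.98% of all genes did. For Camk2a the female minus male difference of the log2 fold changes was -0.12 (95% interval -0.24 to 0.0003; unadjusted p = 0.051, adjusted p = 0.56 by edgeR). For Camk2b it was 0.10 (95% interval -0.01 to 0.21; adjusted p = 0.61 by edgeR), and for Camk2d 0.15 (95% interval -0.04 to 0.35). The difference was -0.09 for Camk4, -0.08 for Camk1d, -0.04 for Camkk2 and 0.0039 for Camk2g. A difference between the sexes in the response of these genes was not detected, and the intervals still allow one of up to 0.24 (log2, in size) for Camk2a.

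**Figure D4:**
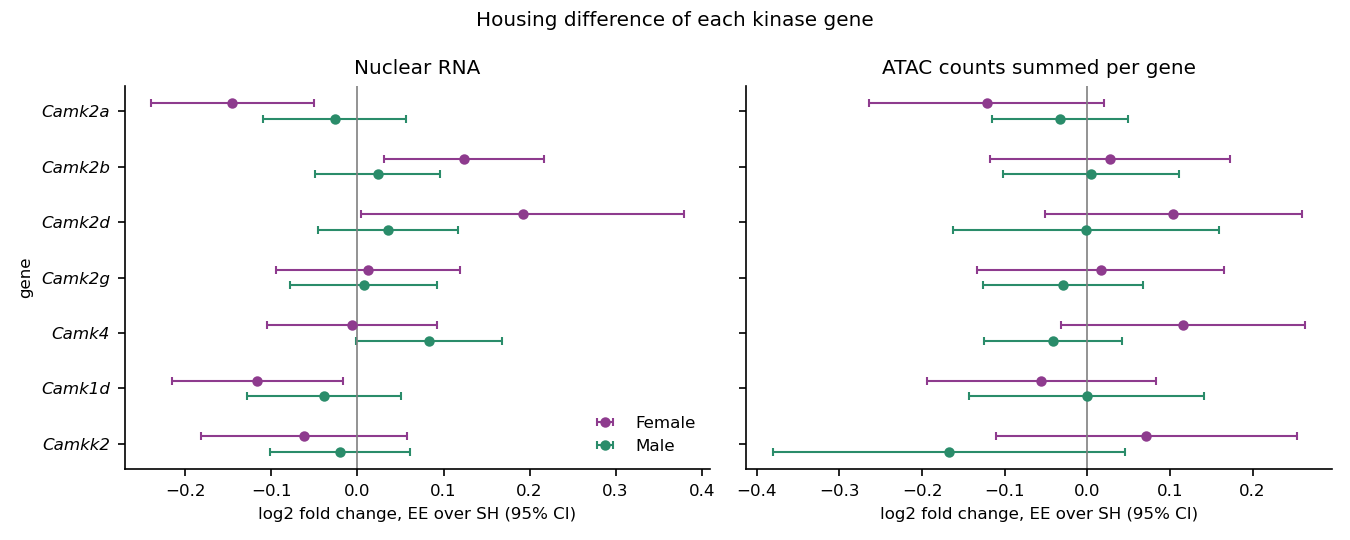
Log2 fold change of EE over SH for each gene with its 95% confidence interval, for nuclear RNA (left) and for ATAC counts summed over the gene's regions (right), females above males. In female RNA the intervals of Camk2a, Camk2b, Camk2d and Camk1d exclude 0 before adjustment; in males and in both ATAC tables every interval includes 0.

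Open chromatin regions covered much of Camk2a, Camk2b and Camk2g. Regions whose midpoint lay in Camk2a or within 1 kb of its start added up to 93.6% of the span of the gene in the female table (23 regions) and 100.4% in the male table (4 regions, the widest 34136 bases and running past the start). For Camk2b the widths added up to 49.0% of the span in the female and 77.7% in the male table, and for Camk2g to 25.0% and 47.8%. Among genes tested in RNA with a span of at least 10 kb and a region, the median was 7.35% in the female table (11220 genes) and 13.2% in the male table (11440 genes), and 99.8% of genes in the female table lay below Camk2a. Camk2d, at 5.47% in the female and 15.2% in the male table, lay near the median, as did Camk1d at 6.89% and 11.4%, with Camk4 at 11.2% and 23.3% and Camkk2 at 11.2% and 13.7%. These values describe the deposited region sets, which differ between the tables, so female and male shares are not a measure of a sex difference.

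No member region was called for EE against SH in either table. In females 78 of 164926 tested regions were called (0.0473%), and of the 240 member regions 12 had an unadjusted p under 0.05, which is 5.0%, against 8.01% of all regions. In males none of 192834 regions was called (0.0%) by edgeR and 7 were by DESeq2, and 6 of 194 member regions (3.09%) had an unadjusted p under 0.05, against 4.54% of all regions. Among the female member regions 96 were higher and 144 lower in EE, where 48.3% of all regions were higher, with a median log2 fold change of -0.04, against -0.01 over all regions. Among the male member regions 80 were higher and 114 lower, where 49.7% of all regions were higher, with a median of -0.03, against -0.0010 over all regions. In the female table, with 3 libraries a group, EE and SH did not overlap at 25 of 240 member regions (10.4%), against 12.8% of all regions.

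Of the 7 genes, Camk2a had the most one-sided regions in females, with 20 of 23 lower in EE and a median log2 fold change of -0.18. The groups did not overlap at 6 of the 23 (26.1%), against 12.8% of all regions and 10.4% of all member regions. Camk2a had the highest such share of the 7 genes, and Camk2g the lowest at 0%. The region over the Camk2a start, at chr18:60924411-60939593 and 15182 bases wide, was added after its values were seen. It had 206, 210.2 and 214 CPM in the 3 female EE libraries and 228, 234 and 248 CPM in the 3 SH libraries, without overlap (log2 fold change -0.17 ± 0.08 SE, unadjusted p = 0.038, adjusted p = 0.59 by edgeR). A region 55.3 kb downstream of the start, at chr18:60980221-60981702, had the smallest p of all member regions. It held 7.62, 8.25 and 10.3 CPM in female EE and 9.84, 11.8 and 14.3 CPM in female SH libraries, with a log2 fold change of -0.46 ± 0.15 (SE; unadjusted p = 0.0039, adjusted p = 0.33 by edgeR). In the male table the region over the start had 243 to 287 CPM in EE and 248 to 270.4 CPM in SH, a log2 fold change of -0.03. All 4 male Camk2a regions were lower in EE, with a median log2 fold change of -0.08, and none had an unadjusted p under 0.05 by edgeR. Neighbouring regions of 1 gene share their libraries and are no replicates of each other, and the share of the excitatory marker difference in the female values was not tested.

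In females, where 48.3% of all regions were higher in EE, 14 of 24 Camk2d regions and 28 of 50 Camk4 regions were. Their median log2 fold changes were 0.09 and 0.08 in that order. Of the Camk4 regions 3 were among the 6 member regions with the smallest p. The one at chr18:32999896-33001699, 61.8 kb from the start, had 13.6, 14.6 and 15.5 CPM in the 3 EE libraries and 11.1, 11.6 and 11.6 CPM in the 3 SH libraries, without overlap (log2 fold change 0.35, adjusted p = 0.45 by edgeR). The one at chr18:33170267-33170856 had 5.47 to 6.58 CPM in EE and 3.45 to 5.00 CPM in SH, without overlap, and the one at chr18:33104587-33105353 had 11.5 to 14.0 CPM in EE and 7.91 to 11.7 CPM in SH. Over the whole gene the groups did not overlap at 4 of 50 Camk4 regions (8.0%), against 12.8% of all regions. Among males 33 of 47 Camk4 regions were lower in EE, with a median log2 fold change of -0.07. The medians of the 2 tables thus had opposite signs, and that difference was not tested. The male Camk4 region with the smallest p, at chr18:32970279-32971441, had 5.46, 5.96 and 6.40 CPM (lowest, median and highest) in EE and 5.66, 7.10 and 7.87 CPM in SH.

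Near the far end of Camk2d, each table had a region with a small unadjusted p and a higher value in EE. The female one, chr3:126832272-126832679, had 3.09, 4.14 and 4.60 CPM in the EE libraries and 2.1, 2.75 and 3.01 CPM in the SH libraries (log2 fold change 0.58, unadjusted p = 0.014, adjusted p = 0.47 by edgeR). The male one, chr3:126831156-126831892, had 2.51 to 3.38 CPM in EE and 1.79 to 3.07 CPM in SH (log2 fold change 0.35, unadjusted p = 0.010, adjusted p = 1.0 by edgeR). They are neighbours and not the same place: the male region that overlaps the female one had a log2 fold change of 0.09, and the female region that overlaps the male one had 0.11. Another male Camk2d region, chr3:126630957-126631289, was lower in EE, with 0.45 to 0.78 CPM against 0.68 to 1.2 CPM in SH.

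Camk1d had 36 of 49 regions lower in EE in females and 25 of 54 in males. Its female region with the smallest p, chr2:5541964-5542524, held few reads, with 0.50, 0.72 and 1.26 CPM in EE and 0.96, 1.83 and 2.37 CPM in SH. Its male one, chr2:5644064-5645131, had 3.21 to 4.08 CPM in EE and 3.37 to 4.76 CPM in SH. All 6 male Camkk2 regions were lower in EE, with a median log2 fold change of -0.39, while 7 of 10 female Camkk2 regions were higher. The 2 female ones with an unadjusted p under 0.05 were lower, chr5:122764304-122764456 at -0.97 and chr5:122737943-122738809 at -0.67 (adjusted p = 0.49 and 0.52 by edgeR). The first overlaps the male region chr5:122763915-122764440 (-0.59), as does a female region at 0.23, chr5:122763942-122764138. The second overlaps the male region chr5:122737561-122738016 (-0.36). The 2 male Camkk2 regions with an unadjusted p under 0.05, chr5:122763915-122764440 and chr5:122736775-122737050, averaged 0.91 ± 0.25 and 0.61 ± 0.17 CPM in EE (SD, n = 6) against 1.38 ± 0.49 and 0.86 ± 0.26 CPM in SH (SD, n = 7), which is little signal.

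**Figure D5:**
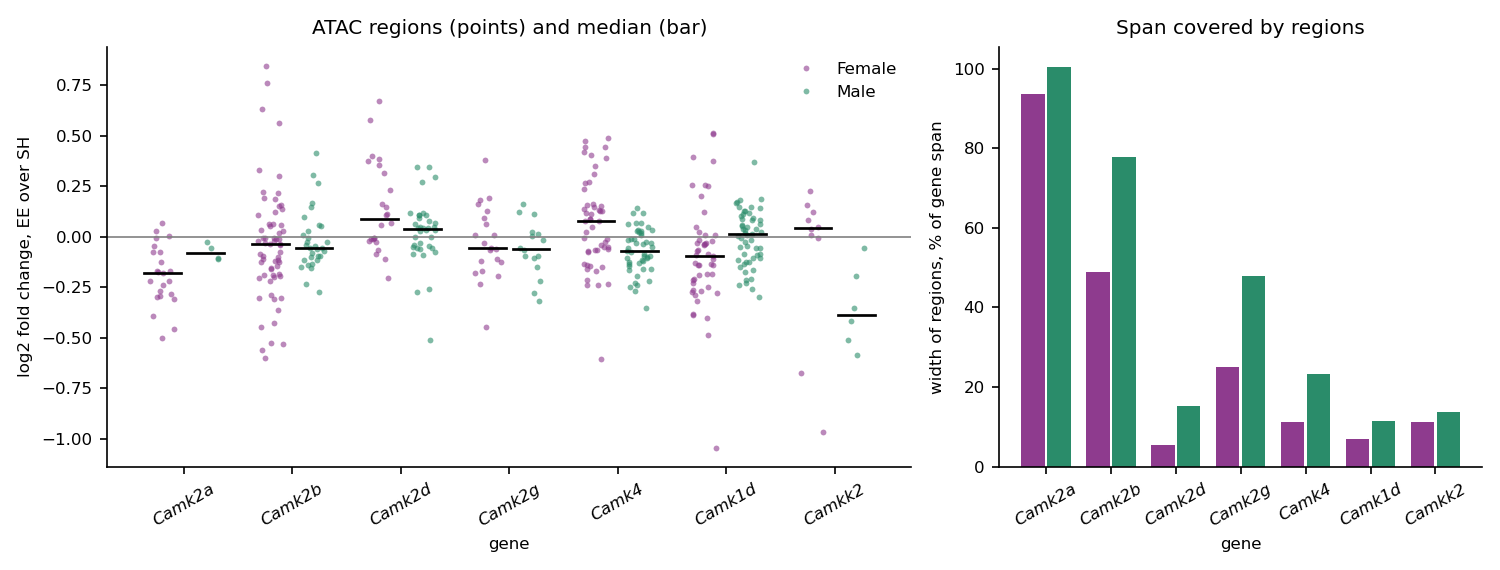
Left, log2 fold change of EE over SH of every ATAC region of each gene (points; female purple, male green) with the median as a black bar; right, the summed width of those regions as a percent of the gene span. The 23 female Camk2a regions lie mostly below 0, and Camk2a and Camk2b are the genes most covered by regions.

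No region over the promoter windows shown above passed the test. At Camk2b the female region chr11:6065822-6066825 overlaps only the upstream part of the window. It reaches neither the start of the window's promoter, at base 6065748, nor the 3 marked GC boxes. This region had 9.86, 10.6 and 11.1 CPM in female EE and 10.5, 11.3 and 12.4 CPM in female SH libraries, a log2 fold change of -0.11. At Camk2d the region over the window had 40.4, 45.6 and 47.3 CPM in female EE and 41.3, 45.1 and 49.5 CPM in female SH libraries, a log2 fold change of -0.03. Both RNA values pointed the other way, but none of the 4 passed its test. The first Camk1d start had 15.5 to 16.7 CPM in female EE and 15.8 to 18.4 CPM in female SH libraries, and its CpG-poor second start had 8.26 to 9.39 CPM in female EE and 9.47 to 11.2 CPM in female SH libraries, without overlap of the groups and with a log2 fold change of -0.21 (unadjusted p = 0.17, adjusted p = 0.78 by edgeR). The female groups did not overlap at 6 of 49 Camk1d regions (12.2%), near the 12.8% of all regions. The other start regions, those of Camk2g, Camk4 and Camkk2 in females and of all 7 genes in males, had log2 fold changes between -0.20 (Camkk2, male) and 0.19 (Camk2g, female).

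Summed over each gene, ATAC counts gave no called member. In females 4 of 23464 genes were called (0.017%), while 7.81% had an unadjusted p under 0.05, which no member did. There were 5 members higher and 2 lower in EE, where 48.8% of all genes were higher. Camk2a had 568.5, 582 and 629 CPM in the 3 female EE libraries and 626, 641 and 669 CPM in the 3 SH libraries, a log2 fold change of -0.12 (95% interval -0.26 to 0.02; adjusted p = 0.72 by edgeR). Of its EE libraries 2 were below every SH library. Female Camk2b had 353, 371 and 377 CPM in EE and 335, 353 and 392 CPM in SH, a log2 fold change of 0.03, and Camk4 had 261, 278 and 304 CPM in EE and 240.3, 266 and 272 CPM in SH, a log2 fold change of 0.12.

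In males none of 25674 genes was called on the summed counts (0.0%) by edgeR, where 2.69% had an unadjusted p under 0.05 and no member did. Only Camk2b of the 7 genes lay above 0, where 47.0% of all genes were higher, and its value was near 0. Male Camkk2 had 26.5, 31.4 and 38.7 CPM (lowest, median and highest) in EE and 25.3, 36.4 and 41.7 CPM in SH, a log2 fold change of -0.17 (95% interval -0.38 to 0.05; adjusted p = 1.0 by edgeR). The groups overlapped. Every other male member lay between -0.04 (Camk4) and 0.0042 (Camk2b) in log2 fold change, and the male Camk2a interval ran from -0.12 to 0.05.

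Of 58 further genes of calcium/calmodulin signalling, all were tested in both sexes and none was called. In each sex 23 were higher and 35 lower in EE, and the median of their log2 fold changes was -0.04 (females) and -0.01 (males). At an unadjusted p under 0.05 there were 6 genes in females (10.3%, against 8.67% of all genes) and 8 in males (13.8%, against 8.03% of all genes).

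Among calmodulin and the proteins that bind it, 2 of 7 genes were higher in female EE and none of 7 in male EE. Nrgn, whose product neurogranin holds calmodulin in dendrites, averaged 87.5 ± 4.77 CPM in female EE and 98.8 ± 11.2 CPM in female SH (SD, n = 6 each; log2 fold change -0.18, adjusted p = 0.42 by edgeR). Of the other calmodulin-dependent kinases and a pseudokinase, 4 of 10 were higher in female EE and 3 of 10 in male EE. Camkk1, the second upstream kinase gene, averaged 31.1 ± 3.07 CPM in male EE and 35.3 ± 4.71 CPM in male SH (log2 fold change -0.18, adjusted p = 0.59 by edgeR), and Cask, a scaffold with a CaMK-like domain, averaged 244 ± 13.7 CPM in male EE and 226 ± 7.13 CPM in male SH (log2 fold change 0.11, adjusted p = 0.45 by edgeR). Camk2n1, an inhibitor of CaMKII, averaged 59.9 ± 10.5 CPM in female EE and 66.0 ± 16.2 CPM in female SH, and 48.7 ± 8.29 CPM in male EE and 56.0 ± 6.07 CPM in male SH. Its adjusted p were 0.86 (females) and 0.70 (males) by edgeR. The log2 fold changes of the other genes chosen in these roles were -0.34 for Marcks, 0.37 for Pnck, -0.09 for Eef2k and 0.07 for Camk2n2 in females, and -0.38 for Pcp4, -0.13 for Calm3 and -0.05 for Camk2n2 in males.

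Of 12 synaptic anchors and targets of CaMKII, 5 were higher in female EE and 4 in male EE. Tiam1, a Rac activator that CaMKII binds, averaged 179 ± 13.7 CPM in female EE and 150.4 ± 17.3 CPM in female SH (SD, n = 6 each; log2 fold change 0.25, unadjusted p = 0.0025, adjusted p = 0.22 by edgeR). Stx1a, a syntaxin of the release machinery, averaged 91.5 ± 5.17 CPM in female EE and 102 ± 4.81 CPM in female SH (log2 fold change -0.16, adjusted p = 0.28 by edgeR). In males the smallest p of this role was that of Rasgrf1, a Ras activator, with 564 ± 24.1 CPM in EE and 609 ± 25.7 CPM in SH (log2 fold change -0.11, adjusted p = 0.44 by edgeR), followed by Gria1, the AMPA receptor subunit, at -0.10.

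Of 12 nuclear targets, 5 were higher in female EE and 8 in male EE. Hdac5, a histone deacetylase that CaM kinases drive out of the nucleus, averaged 79.9 ± 7.01 CPM in female EE and 66.0 ± 5.07 CPM in female SH (log2 fold change 0.28, unadjusted p = 0.00031, adjusted p = 0.15 by edgeR). It had the smallest p of the 58 genes in females, and its adjusted p was 0.030 by DESeq2 and 0.00164 by edgeR without the low-count filter, where that of Tiam1 was 0.00162. Mef2c, a transcription factor held by such deacetylases, averaged 856 ± 74.9 CPM in female EE and 941 ± 81.1 CPM in female SH (log2 fold change -0.14, adjusted p = 0.55 by edgeR), and Mef2a averaged 130.5 ± 4.02 CPM in male EE and 121 ± 5.69 CPM in male SH (log2 fold change 0.11, adjusted p = 0.43 by edgeR). Crtc2, a CREB coactivator, had a log2 fold change of -0.15 in males. Of 9 phosphatase genes 4 were higher in female EE and 5 in male EE, and of 6 AMPK subunit genes 2 were in female EE and 3 in male EE. The phosphatase genes with the smallest p were Ppp1cc at 0.23 and Ppp1cb at -0.10 (log2 fold change) in females, and Ppp3r1 at 0.13 and Ppp3ca at 0.06 in males. Those of AMPK were Prkag2 at -0.14 and Prkab2 at -0.17 in females, and Prkag1 at -0.06 and Prkaa2 at 0.04 in males.

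Across the 24 RNA libraries, after the mean of each housing and sex was taken off, each member had its own closest genes among 5847 compared. The Pearson correlation of Camk2d was highest with Tox3 (r = 0.86) and Cntn5 (0.80), that of Camkk2 with Necab3 (0.84) and Arntl2 (0.80), and that of Camk4 with Dgki (0.82) and Fgf14 (0.77). Camk2b was nearest to Nup133 (0.80) and Pianp (0.77), Camk1d to Plcl2 (0.79) and Dtnb (0.74), Camk2g to Pskh1 (0.78) and Rasal2 (0.75), and Camk2a to Rilpl1 (0.78) and Pgbd5 (0.76). Among the members themselves Camk2g and Camkk2 were most alike (r = 0.61), Camk2d and Camkk2 the least (-0.47), and Camk2a and Camk2b had r = 0.28. These values describe libraries that share depth, sorting and cell makeup within each sample. The closest genes were picked as the highest among 5847, so their r values are high in part by that choice. Deviations of both sexes were pooled without scaling. The r of Camk2d, with a coefficient of variation of 12% in females and 3.97% in males, therefore rests mostly on the female libraries.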

How the data were processed

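Per the file headers and values, the authors deposited raw counts of reads, per Ensembl gene for RNA and per region for ATAC, without normalization and with 1 region set per sex. The submitters' processing notes name build mm10 and the tools STAR 2.5.4, MACS2 2.1.1, DiffBind 3.2.2, SAMtools 1.3.1, DESeq2 1.16.1, bedtools and edgeR; how reads were counted, with which strand setting, and how regions were merged was not given in the sources used. All 43 libraries had their column (0 sample columns were left unmapped), by position in the male RNA table, whose header is 1 name short. Whether region starts count from 0 or 1 is not stated, so coordinates stand as in the tables.

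Housing was tested per table with edgeR 4.0.16 (R 4.3.3): TMM scaling, filterByExpr, robust quasi-likelihood F test, two-sided, Benjamini-Hochberg over all genes or regions tested, call at adjusted p under 0.05. The SE is the log2 fold change over the square root of F. CPM use TMM-scaled totals, and CPM per kb divide by the gene span, the length listed with the female RNA counts. Counts were taken to include introns, but how reads were counted was not given. The order of levels per kb rests on that assumption. The sex by housing term was fitted over all 24 RNA libraries. ATAC counts were also summed over the regions of each gene. Other genes overlapping the spans of the 7 genes held at most 1.55% of their counts (a Rik gene at Camk4). Reads left out of the counts because 2 genes share them would be in neither gene's count, so their number is not known. Scripts were tested on simulated counts.

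The 7 genes and all lists were chosen with earlier results of these data known. Named regions are called ones, the most-counted region within 1 kb of each start and the 6 with the smallest p per table, plus regions covering a start; named pathway genes are up to 2 per role and sex with the smallest p; the 2 genes most like each member needed an average log2 CPM of at least 4. Alternatives were RLE or no scaling, no filter, DESeq2 1.42.0, a replicate block, other region windows and leaving out each library. Of the excitatory neuron markers listed for the check of the sort, 1 is not reported here, and the sum leaves it out.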

Additional observations from a re-analysis of the deposited data

Results flagged for a closer look

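Values of the 7 genes were checked for a library far from the rest of its group, where chance alone gives about 1 in 20. The check takes groups of 4 to 10 libraries, so the female ATAC groups of 3 were left out. Of the 42 groups checked, with 6 or 7 libraries each, 2 had such a library. Camk4 RNA in male SH replicate 5 was 379.7 CPM, above the other 5 SH libraries. Camkk2 ATAC summed over the gene in male SH replicate 6 was 25.3 CPM, below the other 6 SH libraries.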

How the results depend on the processing

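None of the 7 genes and none of their regions was called under any setting run, and the smallest adjusted p of a member gene was 0.061 (Camk2a in female RNA, DESeq2). Of 611 values of member genes under alternatives, 551 kept their sign and 60 did not, and 22 of 35 fold changes or differences kept it under every alternative; the cause was not tested. Female Camk4 RNA turned to 0.017 (library totals) and 0.0027 (no low-count filter), and male Camk2b and Camk2g RNA to -0.0075 and -0.023 (library totals). The interaction of Camk2g turned to -0.0078 (RLE scaling) and -0.0074 (DESeq2). Summed ATAC counts turned to -0.0010 for female Camk2g (library totals), -0.12 for female Camk2b (promoter regions only) and 0.00054 for male Camk1d (any overlap).

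Counts of all called genes or regions moved more. In female RNA 0 became 96 (DESeq2), 168 (no low-count filter) and 1 (library totals), in male RNA 6 became 41 (DESeq2) and 136 (no low-count filter), in the interaction 1 became 45 (DESeq2), and in male ATAC 0 became 7 (DESeq2). The 4 female summed genes became 8 (library totals), 7 (any overlap) and 0 (promoter regions only). With 1 library left out, counts ran from 0 to 85 in female RNA (85 without SH replicate 2), 0 to 11 in male RNA, 0 to 39 in the interaction (39 without female SH replicate 2), 22 to 333 in female ATAC (333 without SH replicate 1), 0 to 3 in male ATAC and 0 to 325 in female summed counts.

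Leaving out 1 library turned the sign of values near 0: the log2 fold changes ran from -0.018 to 0.032 for female Camk2g RNA, -0.037 to 0.014 for female Camk4 RNA, -0.20 to 0.0030 for female Camk2n1 RNA, -0.038 to 0.0072 for male Camk2a RNA, -0.0079 to 0.031 for male Camk2g RNA, -0.033 to 0.0018 for male Camkk2 RNA, -0.17 to 0.028 for male Camk2n2 RNA and -0.035 to 0.021 for the interaction of Camk2g. In female ATAC they ran from -0.080 to 0.031 at the first Camk1d start, -0.091 to 0.043 at the Camk2d start, and, summed per gene, -0.021 to 0.093 for Camk2b, -0.033 to 0.076 for Camk2g and -0.018 to 0.19 for Camkk2. In male summed ATAC they ran from -0.020 to 0.025 for Camk2b, -0.042 to 0.051 for Camk2d and -0.034 to 0.035 for Camk1d.

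The replicate numbers were not taken as pairs, since no table had every same-number correlation over 0.1 and no label says what a number marks. Deviations of same-numbered EE and SH libraries correlated at 0.04 to 0.29 in female RNA, -0.03 to 0.22 in male RNA, -0.07 to 0.07 in female ATAC and -0.10 to 0.17 in male ATAC, and 3 of 6, 2 of 6, 1 of 3 and 2 of 6 EE libraries in that order correlated best with their own number. In female RNA all 6 same-number correlations were above 0 and 3 were over 0.1, with a mean of 0.14 against -0.03 for unlike numbers, a hint from the data and not from the design. With the number as a block, called counts were 95 in female RNA, 3 in male RNA, 28 in the interaction, 34 in female ATAC and 1 in male ATAC, without a member, and the male summed Camk1d value was 0.0082; Hdac5 in female RNA had an adjusted p of 0.016. An order of levels by exon length was not run, since no exon annotation was used here. The number of libraries, 3 a group in female ATAC, limits the precision.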
